A study of Mus musculus with 6 samples.

Results

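Connective tissue of the mouse embryo was followed here through 34 genes of mesenchyme and sclerotome, measured in cervical spinal cord. They were listed by name, as genes of loose connective tissue and of the ventral somite, with no collagens among them. Earlier results of these data were known when the list was made. Of the 34, 32 were measured by 33 probe sets that carried that gene's symbol alone, out of 21780 probe sets with 1 symbol and 28815 in all; the table held 19920 genes with such a probe set complete on every array. Fbn1 was named by no probe set in the annotation used. Loxl2 was named only together with another gene, so neither is reported. Foxf1 had 2 probe sets.

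The arrays were made from cervical cord of embryos at embryonic day 11.5, with dorsal cord and floor plate left out of the tissue. The genotype label was Nkx2.9 knockout on 3 arrays and wild type on the other 3, each group lettered A, B and C, and all 6 shared the stage, the dissection, the small-sample RNA isolation and the whole-transcriptome amplification. The study sought genes downstream of Nkx2.9, a homeodomain factor, as spinal accessory motor neurons form. The strain, the sex of the embryos, the deleted part of the gene and whether an array held 1 embryo or a pool are not given in the sources used here, so p-values measure only the spread between these samples.

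Mesenchyme is the loose, migratory tissue that surrounds the neural tube. Near the cord it comes largely from the somites, whose ventral part, the sclerotome, forms vertebrae and ribs, and it also gives rise to dermis, tendon and the meninges that wrap the cord. Its cells are recognised by transcription factors of the Twist, Prrx, Meox, Fox and Pax families, by the receptor PDGFRA and by secreted matrix proteins such as periostin and lumican. Neuroepithelium makes little of most of these products, with exceptions: Sox9 is also a gene of neural progenitors, and Snai2, Twist1 and Pdgfra are also known from neural crest or its derivatives. In bulk tissue a change in the number of such cells and a change in their RNA per cell cannot be told apart.

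Each value was a log2 expression value centred on that probe set's own median across the 6 arrays. A value of 1 on an array therefore stands for 2-fold above the middle of the 6 arrays, and no value shows how strongly a gene was expressed. A gene that was not detected on any array and a gene that was expressed evenly both lie near 0. The medians of the arrays over all probe sets lay between -0.01 and 0.01. Their SDs ran from 0.10 to 0.14 on 5 arrays, and the SD was 0.19 on the array labelled knockout C. Nkx2-9 itself was not lower in the arrays labelled knockout, at a difference of 0.18 (SE 0.11, adjusted p = 0.812 in limma), and its probes could not be placed relative to the deletion, so every direction below rests on the labels. Xist, the X-inactivation RNA, was high on the arrays labelled knockout B (4.56) and C (4.91) and between -0.25 and 0.11 on the others.

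Transcription starts of the members are shown next for the 4 genes with a single listed start whose values on the array labelled knockout C were highest among those with a listed promoter, and for Nkx3-2, a sclerotome gene that stayed flat. These genes were picked after their values were seen. Sequences are from RefSeq on build GRCm38.p6, run 5′ to 3′ along the gene's strand, and cover 250 bases before and 50 after the annotated start. Promoters were matched for 17 of the 32 measured members, at 18 starts. Capitals mark the TATA box TATAAA, the GC box GGGCGG and the E-box CANNTG, each on either strand. The E-box is the motif bound by helix-loop-helix factors such as the Twist proteins.
Foxd1, chr13:98353995-98354294, plus strand: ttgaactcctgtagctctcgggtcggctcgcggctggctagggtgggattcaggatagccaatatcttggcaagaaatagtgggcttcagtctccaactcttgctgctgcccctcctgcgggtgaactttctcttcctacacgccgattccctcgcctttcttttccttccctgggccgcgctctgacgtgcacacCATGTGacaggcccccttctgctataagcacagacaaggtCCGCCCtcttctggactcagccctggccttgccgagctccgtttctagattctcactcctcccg
Twist1, chr12:33957421-33957720, plus strand: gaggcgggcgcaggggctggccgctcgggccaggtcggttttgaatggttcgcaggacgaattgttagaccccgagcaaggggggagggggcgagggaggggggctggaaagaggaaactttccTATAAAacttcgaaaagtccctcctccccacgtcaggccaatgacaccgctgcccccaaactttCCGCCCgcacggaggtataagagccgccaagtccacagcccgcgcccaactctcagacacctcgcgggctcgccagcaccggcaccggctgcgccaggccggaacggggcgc
Pdgfra, chr5:75152001-75152300, plus strand: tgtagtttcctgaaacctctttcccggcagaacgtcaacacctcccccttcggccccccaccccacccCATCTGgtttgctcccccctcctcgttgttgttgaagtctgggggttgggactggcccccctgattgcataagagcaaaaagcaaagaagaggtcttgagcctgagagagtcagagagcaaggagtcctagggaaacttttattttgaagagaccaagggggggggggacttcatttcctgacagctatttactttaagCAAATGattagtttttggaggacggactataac
Prrx1, chr1:163313601-163313900, minus strand: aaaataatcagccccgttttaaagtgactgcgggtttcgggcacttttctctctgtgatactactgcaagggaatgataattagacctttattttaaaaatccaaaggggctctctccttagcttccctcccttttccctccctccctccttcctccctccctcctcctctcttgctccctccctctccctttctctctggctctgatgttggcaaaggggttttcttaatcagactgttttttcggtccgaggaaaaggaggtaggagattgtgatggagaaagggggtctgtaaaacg
Nkx3-2, chr5:41764171-41764470, minus strand: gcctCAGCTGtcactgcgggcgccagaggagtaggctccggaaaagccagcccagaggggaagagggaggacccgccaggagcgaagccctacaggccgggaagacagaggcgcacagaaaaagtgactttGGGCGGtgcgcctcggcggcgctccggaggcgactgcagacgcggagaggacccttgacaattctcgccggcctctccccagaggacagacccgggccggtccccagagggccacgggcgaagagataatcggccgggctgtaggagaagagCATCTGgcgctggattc
The 5 promoters had no motif in common among these letters. Twist1 carried a TATA box and a GC box, Foxd1 a GC box and an E-box, Pdgfra 2 E-boxes, and Prrx1 none of the motifs. Flat Nkx3-2 carried a GC box and 2 E-boxes. Over the 18 member promoters 61.1% held a GC box, against 35.7% of all 32851 promoters in the table. An E-box was present in 9 of the 18, against 72.3% of all promoters, and a TATA box in 22.2%, against 13.6%. Median GC content was 59.2% in the members and 52.7% over all. These are matches of letters at any position in the 300 bases, with no limit on distance from the start, and show no binding.

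The members stood apart on a single array. On the array labelled knockout C their median was 0.36, and 26 of the 32 (81.2%) had their highest value there, where 27.6% of all 21762 complete probe sets with 1 symbol did. On that array 18 members were at 0.3 or above, against 4.94% of all probe sets with 1 symbol, and 9 were at 1 or above, against 0.225%. Wild-type B came next, with a member median of 0.10, 5 members at 0.3 or above (2.47% of all probe sets) and 2 at 1 or above (0.0781%). The medians of the other 4 arrays lay between -0.06 and 0.00, and Dcn on knockout B was the only member at 0.3 or above on any of them. In 17 members knockout C was highest and wild-type B second, an order found in 5.31% of all probe sets. These arrays carry different genotype labels. The array labelled knockout B shared the high Xist value with C but not the high members, with a median of -0.02. As earlier results were known when the list was made, the shares above describe the members and are no test.

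**Figure D1:**
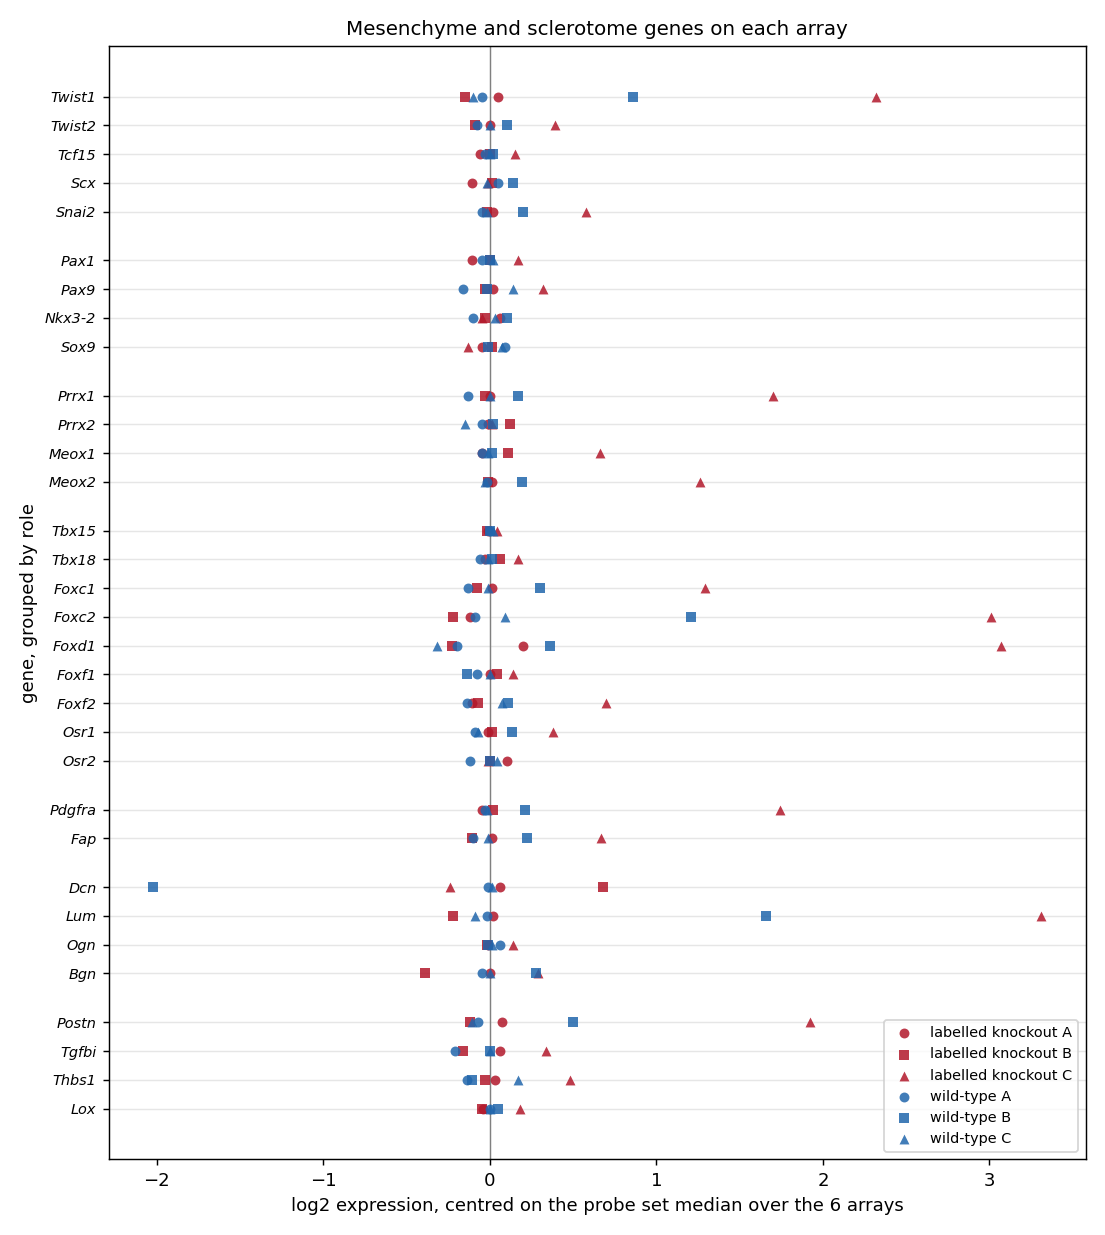
Centred log2 expression (x axis) of the 32 measured members (y axis, grouped by role; for Foxf1 the probe set with more accessions), with 1 point per array: red for labelled knockout, blue for wild type, and circle, square and triangle for A, B and C. The red triangles of knockout C lie far to the right for 9 members at 1 or above, up to 3.31 for Lum, while Dcn has its lowest point, -2.02, in wild-type B.

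Compared as groups, the members leaned higher in the arrays labelled knockout, but none passed a test. Of the 32, 27 were higher in the arrays labelled knockout, where 54.9% of all probe sets with 1 symbol were higher, and 5 were lower, against 45.1%. The median difference was 0.14, against 0.01 over all. In limma 0 members passed an adjusted p of 0.05 (lowest adjusted p 0.812; 0% of probe sets with 1 symbol passed) and 0 had an unadjusted p under 0.05, against 6.12% of those probe sets. Differences of at least 0.3 were found in 10 members, against 1.73% of all. In 0 members did the groups separate without overlap, where 11.1% of all probe sets did. The median SE of a member was 0.143, against 0.0671 over all, and the largest was 1.01, for Lum.

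Without the array labelled knockout C the direction of the list turned. Then 12 members were higher and 20 lower, at a median of -0.04, where 51.6% of all probe sets were higher and 48.4% lower. The sign changed in 17 members, of which 16 went from higher to lower. In limma 0 of the 32 had an unadjusted p under 0.05, against 4.34% of all, and the lowest adjusted p was 0.977. Dcn was the only member still higher by 0.3 or more, against 0.882% of all probe sets, and Lum and Foxc2 were lower by more than 0.3, at -0.61 and -0.57. With wild-type B left out as well, 19 members were higher and 13 lower at a median of 0.01, where 52.9% of all were higher and 47.1% lower. The 32 differences then lay between -0.18 and 0.37, and 0 had an unadjusted p under 0.05, against 3.49% of all. This last comparison rests on 2 arrays per group and was added after the values were seen.

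**Figure D2:**
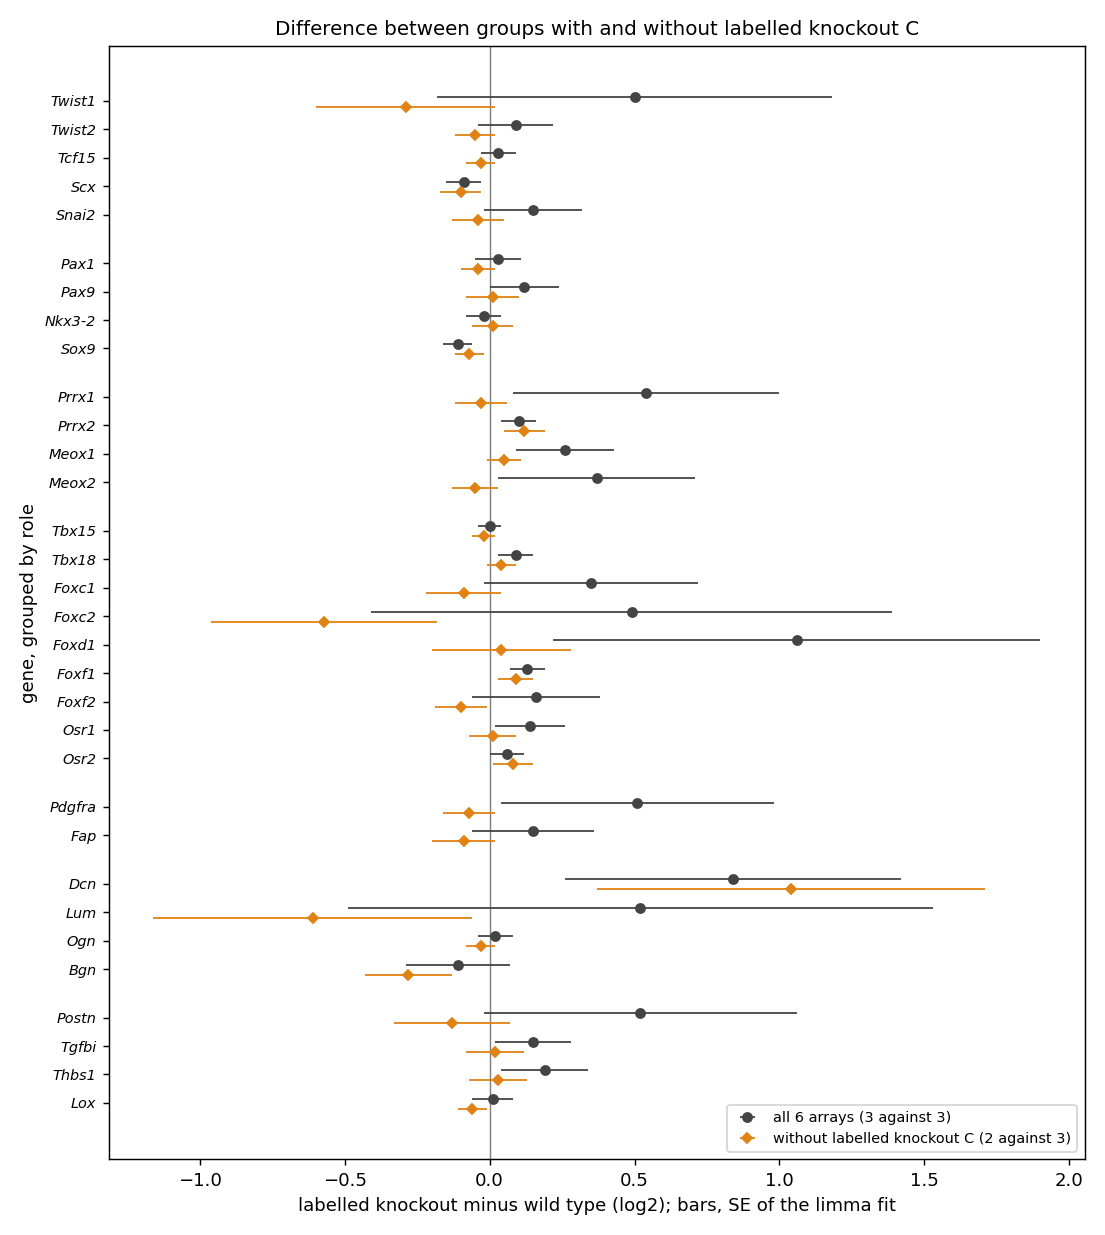
Labelled knockout minus wild type (x axis, log2) for each measured member (y axis, grouped by role), with all 6 arrays (dark circles) and without labelled knockout C (orange diamonds); bars are SEs of the limma fit. The long dark bars of Lum, Foxc2, Foxd1 and Twist1 come with SEs from 0.68 to 1.01, and most orange points lie near 0, apart from Dcn at 1.04, Lum at -0.61 and Foxc2 at -0.57.

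Among the helix-loop-helix and Snail factors, Twist1, a master regulator of mesenchymal identity, differed most between arrays. Twist1 read 0.05, -0.15 and 2.32 in labelled knockouts A, B and C and -0.05, 0.86 and -0.10 on wild-type A, B and C. Knockout C and wild-type B were high, the other 4 arrays were level, and the groups overlapped. The difference was 0.50 (SE 0.68, adjusted p = 0.911 in limma), and -0.29 without knockout C. Snai2, which drives epithelial cells to become mesenchymal, read 0.02, -0.02 and 0.58 in the labelled knockouts and -0.05, 0.20 and -0.02 in the wild type. It followed the same order at smaller size, with a difference of 0.15 (SE 0.17) and -0.04 without C. Scx, the tendon factor scleraxis, read -0.11, 0.01 and -0.01 against 0.05, 0.14 and -0.02. No array stood out for Scx, and its difference of -0.09 (SE 0.06, unadjusted p = 0.167) was -0.10 without C but -0.0503 without wild-type B and -0.0567 without knockout A. Twist2, the close relative of Twist1 found in dermis, reached 0.39 on knockout C. Tcf15, the somite factor paraxis, stayed within a range of 0.21.

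The sclerotome and cartilage factors had ranges of 0.48 or less over the 6 arrays. Pax1 and Pax9, paired-box factors of the ventral sclerotome, had their highest values on knockout C but only at 0.17 and 0.32. Pax1 read -0.11, 0.00 and 0.17 in the labelled knockouts and -0.05, 0.00 and 0.02 in the wild type. Pax9 read 0.02, -0.03 and 0.32 against -0.16, -0.02 and 0.14. The groups overlapped for both, at differences of 0.03 (SE 0.08) and 0.12 (SE 0.12). The Pax9 difference was 0.0112 without knockout C and 0.0456 without wild-type A. Nkx3-2, which acts after Pax1 and Pax9 in cartilage formation, had a range of 0.20, with knockout C at -0.05. Sox9, required for cartilage and also expressed by neural progenitors, went the other way. Its values were -0.05, 0.01 and -0.13 in the labelled knockouts and 0.09, -0.01 and 0.07 in the wild type, lowest on knockout C. Its difference was -0.11 (SE 0.05, unadjusted p = 0.0993, adjusted p = 0.812 in limma). A list of 10 other cartilage genes had a median of -0.03 on knockout C. Hapln1 and Cnmd were its 2 genes of lowest p. Hapln1, a link protein of hyaluronan matrix, stood at 1.32 on knockout C, and its difference of 0.40 (SE 0.36) was -0.04 without that array. Cnmd was at 0.19 on knockout C. Its difference was 0.29 (SE 0.10, unadjusted p = 0.0246, adjusted p = 0.812 in limma), and 0.28 without that array. Of the 10 genes, 1 was higher at an unadjusted p under 0.05, against 3.32% of all probe sets with 1 symbol.

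Of the homeobox factors, 3 of 4 were highest on knockout C, and Prrx2 was not. Prrx1, a factor of limb, face and trunk mesenchyme, read 0.00, -0.03 and 1.70 in the labelled knockouts and -0.13, 0.17 and 0.00 in the wild type. Prrx2, its closest relative, read -0.01, 0.12 and 0.01 against -0.05, 0.02 and -0.15. Knockout C was thus 3.24-fold above the median of the other arrays for Prrx1 and 1.01-fold for Prrx2. Meox2, a somite and muscle precursor factor, read 0.01, -0.01 and 1.26 against -0.02, 0.19 and -0.03. Meox1, needed with Meox2 for the sclerotome, read -0.05, 0.11 and 0.66 against -0.05, 0.01 and -0.01. For both, knockout C was the only array clearly above the rest. Differences of 0.54 (SE 0.46) for Prrx1, 0.37 (SE 0.34) for Meox2 and 0.26 (SE 0.17) for Meox1 became -0.03, -0.05 and 0.05 without that array. Prrx2 was at 0.10 (SE 0.06), at 0.12 without C, and at 0.0604 without knockout B and 0.0549 without wild-type C.

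Forkhead genes held the largest values of any factor. Foxd1, known from kidney stroma, meningeal and pericyte precursors, read 0.20, -0.23 and 3.07 in the labelled knockouts and -0.20, 0.36 and -0.32 in the wild type. Knockout C stood 9.63-fold above the median of the other arrays, and the other 5 arrays were mixed. Foxd1 had the largest difference of all members, 1.06 (SE 0.84, unadjusted p = 0.249, adjusted p = 0.83 in limma), and 0.04 (SE 0.24) without that array. Foxc2, a factor of somite mesoderm and lymphatic vessels, read -0.12, -0.22 and 3.01 against -0.09, 1.21 and 0.09. Wild-type B was the second highest by a wide margin, and without knockout C the difference went from 0.49 (SE 0.90) to -0.57 (SE 0.39). Foxc1, which acts with Foxc2 in somites and is required for the meninges, reached 1.29 on knockout C and 0.30 on wild-type B. Foxf2, a factor of gut, palate and brain pericyte mesenchyme, reached 0.70 on knockout C. Foxf2 and Foxc1 are neighbouring genes on chromosome 13 with no coding gene between them, and both had knockout C highest and wild-type B second.

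For Foxf1, a factor of lateral plate mesoderm, the 2 probe sets disagreed. The one with more accessions read 0.00, 0.04 and 0.14 in the labelled knockouts and -0.08, -0.14 and 0.00 in the wild type. The other read -0.16, 0.02 and 2.04 against -0.02, 0.74 and -0.07, in the order of most members. Foxc2, with values of the same order, lies near Foxf1 on chromosome 8 with 1 coding gene between them. The first probe set had the lowest unadjusted p of any member (0.0628; difference 0.13, SE 0.06; adjusted p = 0.812 in limma), and the second was at 0.42 (SE 0.60). Without knockout C the first was at 0.09 and the second at -0.28. Which of them reads Foxf1 alone was not tested.

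T-box and odd-skipped factors moved little, apart from Osr1, whose range was 0.47 against a median of 0.24 over all probe sets with 1 symbol. Tbx18, expressed in the anterior sclerotome and in pericytes, read -0.03, 0.06 and 0.17 in the labelled knockouts and -0.06, 0.01 and -0.01 in the wild type. Its difference was 0.09 (SE 0.06), and 0.04 without knockout C. Tbx15, a factor of skin and skeletal mesenchyme, had the narrowest range of all members, 0.06. Osr1, a factor of intermediate mesoderm and connective tissue, reached 0.38 on knockout C, whereas its relative Osr2 was at -0.01 there and highest on knockout A, at 0.10.

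Both surface proteins had knockout C highest and wild-type B second. Pdgfra, the receptor for platelet-derived growth factor that marks most embryonic mesenchyme, read -0.05, 0.02 and 1.74 in the labelled knockouts and -0.03, 0.21 and -0.02 in the wild type. Fap, a protease on the surface of activated fibroblasts, read 0.01, -0.11 and 0.67 against -0.10, 0.22 and -0.01. The differences of 0.51 (SE 0.47) and 0.15 (SE 0.21) turned to -0.07 and -0.09 without knockout C. Pdgfra on the remaining 5 arrays spanned no more than -0.05 to 0.21.

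Small leucine-rich proteoglycans bind collagen fibrils and growth factors, and here they did not move as a family. Lum, lumican, held the highest single value of any member: it read 0.02, -0.22 and 3.31 in the labelled knockouts and -0.02, 1.66 and -0.09 in the wild type. Knockout C was 10.1-fold above the median of the other arrays, and wild-type B was the only other array far from 0. The difference of 0.52 (SE 1.01) became -0.61 (SE 0.55) without knockout C. Dcn, decorin, behaved differently, at 0.06, 0.68 and -0.24 in the labelled knockouts and -0.01, -2.02 and 0.01 in the wild type. The lowest Dcn value was on wild-type B and the next lowest on knockout C, the arrays where Lum was highest, although Dcn and Lum are neighbouring genes on chromosome 10 with no coding gene between them. The Dcn difference of 0.84 (SE 0.58, adjusted p = 0.813 in limma) was 0.165 without wild-type B. Bgn, biglycan, read 0.00, -0.39 and 0.29 against -0.05, 0.28 and 0.00, with knockout C and wild-type B level with each other. Its difference of -0.11 (SE 0.18) was -0.28 (SE 0.15) without knockout C. Ogn, osteoglycin, had a range of 0.16.

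All 4 measured genes of the remaining matrix group were highest on knockout C. Postn, periostin, a matrix protein of periosteum, valves and fibroblasts, read 0.07, -0.12 and 1.92 in the labelled knockouts and -0.07, 0.50 and -0.11 in the wild type. Thbs1, thrombospondin, read 0.03, -0.03 and 0.48 against -0.14, -0.11 and 0.17. Tgfbi, a matrix protein induced by TGF-beta, read 0.06, -0.16 and 0.34 against -0.21, 0.00 and 0.00. Knockout C lay 3.99-fold above the median of the other arrays for Postn, 1.42-fold for Thbs1 and 1.27-fold for Tgfbi. Lox, the oxidase that crosslinks collagen and elastin, was at 0.18 there. The group differences were 0.52 (SE 0.54), 0.19 (SE 0.15), 0.15 (SE 0.13) and 0.01 (SE 0.07), and without that array -0.13, 0.03, 0.02 and -0.06.

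The members differed widely in how much they varied. The range over the 6 arrays was at least 1 in 10 members, against 1.79% of all probe sets with 1 symbol, and under 0.3 in 12, against 64.6% of all, with the rest in between. Those at 1 or above were Twist1, Prrx1, Meox2, Foxc1, Foxc2, Foxd1, Pdgfra, Dcn, Lum and Postn. In 9 of them, all but Dcn, knockout C was highest and wild-type B second. Leaving out the 4 members also known from neural or crest cells gave 24 of 28 higher with all arrays and a median of 0.33 on knockout C.

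Other gene lists were set beside the members array by array. A list of 33 further measured connective tissue genes, none of them a member, had its highest median on knockout C too, but at 0.12. On that array 0 of the 33 reached 1, against 0.225% of all probe sets with 1 symbol. Of the 33, 18 had knockout C highest, against 27.6% of all. In that list the difference was above 0 for 23 genes and below 0 for 10 (median 0.05), against 54.9% and 45.1% of all. In limma 0 passed an adjusted p of 0.05. At unadjusted p under 0.05 there was 1 gene in each direction, against 3.32% (higher) and 2.8% (lower) of all probe sets with 1 symbol, which is about as many as the background gives for a list of this size: Efemp1, a fibulin, at 0.39 (SE 0.16; 0.61 on knockout C) and Acta2, smooth muscle actin, at -0.11 (SE 0.04). Without knockout C 15 were higher and 18 lower, against 51.6% and 48.4% of all probe sets with 1 symbol. The largest values of the list on knockout C, after Efemp1, were those of the tendon homeobox gene Mkx (0.57), the gelatinase gene Mmp2 (0.50) and the inhibitor gene Timp3 (0.50). Below 0 there were Uncx (-0.31), Acta2 (-0.05), Kera (-0.03), Sparc (-0.02), Alx4 (-0.02) and Ltbp2 (-0.02). These high and low genes were chosen after their values were seen.

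Vessel genes stood highest of all lists on knockout C, with a median of 0.56 over 12 genes. Of the 12, 10 were highest there, against 27.6% of all probe sets with 1 symbol, led by the endothelial cadherin gene Cdh5 at 1.37. Rgs5 (-0.17) and Cldn5 (0.05) were not highest there. The 2 vessel genes of lowest p were Pecam1 and Rgs5. Pecam1 was at 0.54 on knockout C, and its difference of 0.26 (SE 0.18) was 0.07 without that array. Rgs5 went the other way, at -0.41 (SE 0.23), and -0.45 without knockout C. The medians of the vessel list on the other arrays lay between -0.11 and 0.09, the last of these on wild-type B. Meningeal markers, which share Foxc1 with the members, had a median of 0.14 on knockout C over 8 genes. Of the 8, 5 were highest there, against the same 27.6% of all. The 2 meningeal genes of lowest p were Aldh1a2 and Slc6a13. Aldh1a2, a retinoic acid synthesis gene that motor neurons also express, stood at 0.89 on knockout C and 1.35 on wild-type B. Slc6a13 was at 0.19 on knockout C, whereas Igfbp2 was at -0.46 and Crabp2 at -0.11 there. Crest and Schwann precursor genes were at 0.17 (6 genes) and macrophage genes at 0.11 (10 genes) on knockout C. The muscle list had medians from -0.01 to 0.02 over 17 genes, and 5 of the 17 were highest on knockout C. The 2 muscle genes of lowest p were Tnnt1, a troponin gene of striated muscle, and Myog. Tnnt1 stood at 0.72 on knockout C, while Myog was at 0.03, with a difference of -0.07 (SE 0.06). Actc1, an actin gene of striated muscle, stood at 0.60 on knockout C, and Lbx1 was lowest of the list there, at -0.14. Actc1, Lbx1 and Cdh5 were named after their values were seen. Surface ectoderm medians ran from -0.03 to 0.02 over 10 genes. Differentiated neuron genes were lowest on knockout C (-0.17 over 12 genes) and highest on wild-type B (0.16). Of the 12, 11 were lower in the arrays labelled knockout, against 45.1% of all probe sets with 1 symbol, at a median difference of -0.13. Without knockout C 11 were again lower, against 48.4%, at a median of -0.09. At unadjusted p under 0.05 in limma 2 were lower, against 2.8% of all: Elavl3 at -0.13 (SE 0.04) and Syt1 at -0.44 (SE 0.17). Both had an adjusted p of 0.812 in limma. Dorsal root ganglion genes were at -0.22 on knockout C (7 genes). Neural progenitor medians ran from -0.04 to 0.04 (10 genes), and erythroid medians from -0.32 on wild-type B to 0.18 on wild-type C (7 genes). The values of every list are relative to each gene's own median, so no summed marker level could be formed. The part of vessel, neuron or other cells in the values of the members was not tested.

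**Figure D3:**
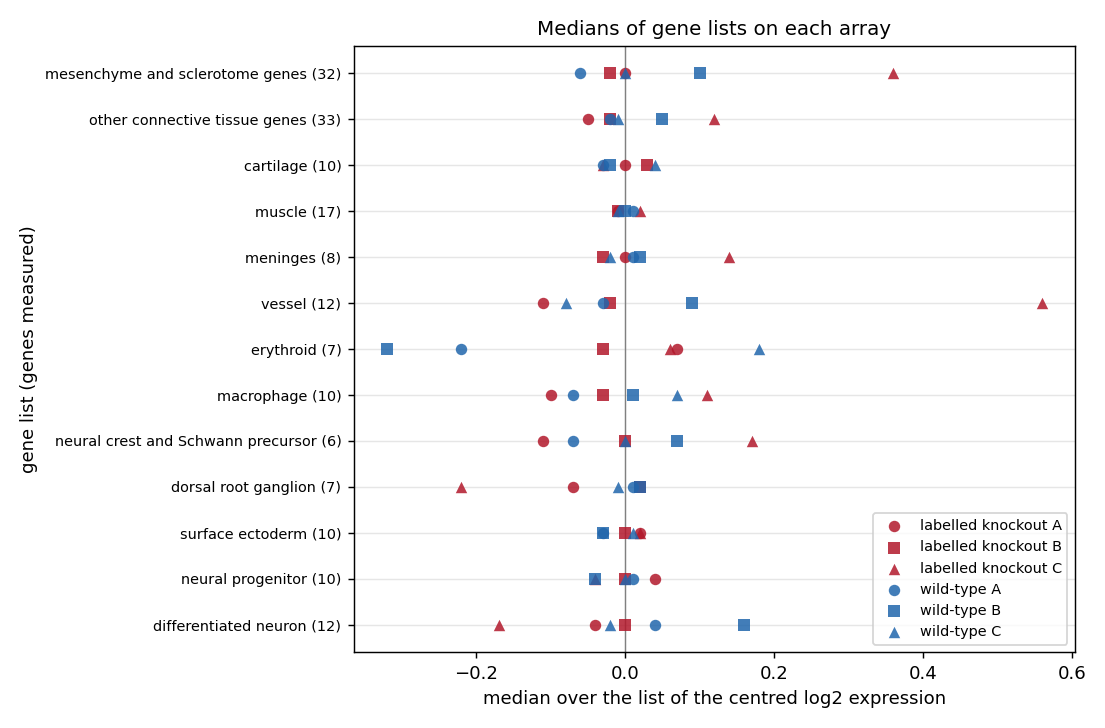
Median over each gene list (y axis, with the number of genes measured) of the centred log2 expression (x axis) on each array: red for labelled knockout, blue for wild type, with circle, square and triangle for A, B and C. Knockout C stands to the right at 0.56 for vessel genes and 0.36 for the mesenchyme and sclerotome genes, and to the left at -0.17 for differentiated neuron genes, while the medians of the muscle list lie between -0.01 and 0.02.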

How the data were processed

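Total RNA from 6 samples went through whole-transcriptome amplification and biotin labelling, per the labels' protocols. The authors made the deposited log2 values with RMA, per the submitters' processing notes, with settings not given in the sources used here. Its log base was taken as 2, the base RMA uses. All 28791 complete probe sets had a median of 0 within 1e-06 over the 6 arrays, so levels were not visible, while differences between arrays are not altered by that centring; 24 probe sets lacked a value on wild-type C and were fitted on 5 arrays. No pair among 15 pairs of arrays held identical values.

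Symbols came from the platform annotation, with 0 changed through Entrez identifiers in a RefSeq table of GRCm38.p6. A gene was read from its complete probe set with the most accessions. Genotype was fitted over all 28815 probe sets with limma 3.58.1 (lmFit, eBayes; R 4.3.3), with Benjamini-Hochberg adjustment, and the script was tested on simulated data. Backgrounds are over 21762 complete probe sets with 1 symbol. SEs are those of the fit. Figures used matplotlib 3.10.9.

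The members and lists were chosen with earlier results of these data known. Values on every array are given, per role, for the 2 members of lowest p and the 2 of widest range, other members by range or highest value. Alternatives were each array left out, quantile normalization, arrays centred on their medians, the letter as a replicate block, weights per array, a robust prior, the mean over probe sets, and 4 members left out. A filter on low values was planned and not run, since no level was present.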

Additional observations from a re-analysis of the deposited data

How the results depend on the processing

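Across 13 settings no member passed an adjusted p of 0.05 in limma. The median of the list changed sign only without knockout C: with single arrays left out, the count of members higher in the arrays labelled knockout ran from 12 to 29, its median difference from -0.0365 to 0.226, and the count at unadjusted p under 0.05 from 0 to 1. The 12 and the -0.0365 came without knockout C. The 1 gene at that p was Foxf1, by its probe set with more accessions, without knockout A or wild-type C. In those 2 settings 1450 and 1874 of all 28815 probe sets were at that p. With the letter as a replicate block 2 members, Thbs1 and Foxf1, had an unadjusted p under 0.05 (adjusted p = 0.538 and 0.551). Whether the letters pair the samples was not settled. Same-letter deviations correlated at 0.165 (A), 0.216 (B) and 0.0159 (C) over probe sets, and those of different letters at -0.187 to 0.0436. For A and B the same-letter value was the highest of either array with the other group. Knockout C correlated best with wild-type A (0.0284). Over all 28815 probe sets, the block moved the count at an unadjusted p under 0.05 from 1605 to 2552, the background for those 2 members.

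With single arrays left out, the differences of 19 members changed sign: Twist1 (-0.292 to 0.942), Twist2 (-0.0526 to 0.189), Tcf15 (-0.0293 to 0.0762), Snai2 (-0.0424 to 0.259), Pax1 (-0.041 to 0.0999), Nkx3-2 (-0.0704 to 0.0297), Prrx1 (-0.0276 to 0.833), Meox2 (-0.0488 to 0.582), Tbx15 (-0.0208 to 0.00817), Foxc1 (-0.0851 to 0.598), Foxc2 (-0.571 to 1.04), Foxf2 (-0.0994 to 0.304), Pdgfra (-0.0736 to 0.825), Fap (-0.0864 to 0.306), Lum (-0.614 to 1.15), Ogn (-0.032 to 0.0457), Bgn (-0.278 to 0.0646), Postn (-0.127 to 0.893) and Lox (-0.062 to 0.0525). Of these, 17 turned without knockout C, and Tbx15 and Bgn turned only without other arrays. The other 13 kept their sign, within these ranges: Scx (-0.13 to -0.0503), Pax9 (0.0112 to 0.196), Sox9 (-0.141 to -0.069), Prrx2 (0.0549 to 0.143), Meox1 (0.0489 to 0.403), Tbx18 (0.0396 to 0.139), Foxd1 (0.0353 to 1.69), Foxf1 (0.092 to 0.169), Osr1 (0.00862 to 0.203), Osr2 (0.00974 to 0.0929), Dcn (0.165 to 1.18), Tgfbi (0.017 to 0.267) and Thbs1 (0.0271 to 0.284). For Foxf1 this holds for the probe set with more accessions. The other Foxf1 probe set turned from 0.42 to -0.28 without knockout C. With knockout C and wild-type B both left out, added after the data were seen, Twist2 (-0.00664), Tcf15 (-0.0174), Pax1 (-0.0379), Nkx3-2 (0.0508), Foxc2 (-0.169), Foxf2 (-0.0507), Lum (-0.04), Ogn (-0.0479), Thbs1 (-0.0119) and Lox (-0.044) changed sign. Quantile normalization turned Ogn (-0.00825) and Lox (-0.0143), and array weights turned Lox (-0.0122). Quantile normalization also lowered the median of the list from 0.141 to 0.0774, and Lum to 0.0106, Foxc2 to 0.0157, Twist1 to 0.167, Postn to 0.25, Foxd1 to 0.563, Prrx1 to 0.294 and Pdgfra to 0.268, by giving the deviations of all arrays 1 distribution. The number of arrays limits precision, and signal over background could not be seen.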
